A study of Mus musculus with 20 samples.

Results

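The genes described here encode the receptors by which myeloid cells of the mouse bind immunoglobulin G (IgG): the activating receptors *Fcgr1*, *Fcgr3* and *Fcgr4*, the inhibitory receptor *Fcgr2b*, and *Fcer1g*, the signaling chain that the activating receptors share. They were chosen by symbol, and all 5 were found among the 16810 genes of the expression table. Flow cytometry separated the microglia as cells of high eGFP fluorescence, taken from adult CX3CR1+/eGFP mice, which carry 1 copy of a green fluorescent reporter in the fractalkine receptor gene, so that circulating monocytes are marked as well. Polyadenylated RNA was sequenced from a segment of thoracic spinal cord. There were 3 samples of non-injured mice (NI). Mice with a lateral hemisection of the cord (HS) were represented by 3, 2 and 3 samples for 72 h, 1 week and 2 weeks, and mice with a full transection (FT) by 3 samples per time point, which makes 20 samples in 7 groups, all of the same genotype. Libraries may pool several animals. Each sample held from 3872918 to 34099232 reads on the genes of the table (NI 6040762 to 13937586). Values are normalised counts per 1e6 reads (CPM). All 10 markers used to check for microglia, among them *Tmem119* and *P2ry12*, were present in every group, with a summed level of 11463 to 26415 CPM over the samples, and 2 or 3 of them were lower than NI in each injured group, while 1 was higher at 72 h after HS and 1 at 72 h after FT.

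Fc receptors link antibodies to the engulfing and inflammatory machinery of the cell. The activating receptors have no signaling motif of their own and rely on *Fcer1g*, whose tail carries an immunoreceptor tyrosine-based activation motif (ITAM). Once antibody clusters the receptors, Src family kinases phosphorylate the ITAM, Syk docks there, and actin is driven around the particle. *Fcgr2b* carries the opposing inhibitory motif, which recruits the phosphatase encoded by *Inpp5d*. Microglia express these receptors at rest, although little antibody crosses the intact blood-brain barrier.

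*Fcgr2b* (chromosome 1 of GRCm38, 170958617 to 170976547, minus strand), *Fcgr4* (171018920 to 171029761, plus strand), *Fcgr3* (171051174 to 171064935, minus strand) and *Fcer1g* (171229572 to 171234365, minus strand) lie within 276 kb of each other. *Fcgr1* is alone on chromosome 3 (96282909 to 96293969, minus strand). *Fcgr3* and *Fcgr2b* are close relatives: of all 50-base stretches of the *Fcgr3* transcript, 12.8% also occur in *Fcgr2b*, so that the split of reads between these genes is uncertain. None of the stretches of *Fcgr1*, *Fcgr4* or *Fcer1g* occurs in another gene. The exons of *Fcgr2b* also overlap the annotated gene *Gm38204*, and the strandedness of the libraries is not stated.

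The 250 bases before the RefSeq start of *Fcgr4*, whose RNA changed most, are shown with those of its neighbour *Fcgr3* and of *Fcgr1*, whose RNA did not pass the test against NI on the deposited scale. They were read from RefSeq (GRCm38.p6) for *Fcgr4* (chr1:171018676-171018925, plus strand), *Fcgr3* (chr1:171059404-171059653, minus strand) and *Fcgr1* (chr3:96293970-96294219, minus strand), 5′ to 3′ on the strand of the gene. The *Fcgr3* window lies inside the span of the gene given above, as does the RefSeq start from which it was counted. The window searched for *Fcgr2b*, which is not printed, also lies inside the span of its gene. Capitals mark matches to the motifs searched.
Fcgr4: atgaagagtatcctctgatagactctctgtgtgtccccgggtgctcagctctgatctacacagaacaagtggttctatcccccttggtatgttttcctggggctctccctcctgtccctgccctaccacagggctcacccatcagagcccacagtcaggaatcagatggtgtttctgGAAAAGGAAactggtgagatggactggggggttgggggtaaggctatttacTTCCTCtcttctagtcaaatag
Fcgr3: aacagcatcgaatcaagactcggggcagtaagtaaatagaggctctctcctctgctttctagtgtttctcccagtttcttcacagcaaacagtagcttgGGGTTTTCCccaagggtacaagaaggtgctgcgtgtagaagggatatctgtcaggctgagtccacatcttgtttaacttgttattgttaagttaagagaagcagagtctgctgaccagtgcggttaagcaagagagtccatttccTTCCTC
Fcgr1: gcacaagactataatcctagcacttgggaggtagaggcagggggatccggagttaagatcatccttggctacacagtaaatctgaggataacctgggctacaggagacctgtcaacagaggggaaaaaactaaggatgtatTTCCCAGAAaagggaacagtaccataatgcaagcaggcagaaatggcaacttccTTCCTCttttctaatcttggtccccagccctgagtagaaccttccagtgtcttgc

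The motifs were searched on both strands, with the positions counted back from the start. The 5 genes had 6 windows in all, and only the first listed for each gene was searched. The core of the myeloid factor PU.1 (GAGGAA, printed above as its reverse complement TTCCTC) lay at -22 in *Fcgr4*, at -6 in *Fcgr3* and at -55 in *Fcgr1*. Of the 32851 promoter windows of the same length, 23.3% hold it. The core of the interferon-stimulated response element (GAAANNGAA, in 7.13% of windows) lay at -73 in *Fcgr4*. The gamma-interferon activation site (TTCNNNGAA, 7.02%) lay at -109 in *Fcgr1*, and the NF-kB motif (GGGNNTTCC, 4.98%) at -151 in *Fcgr3*. The AP-1 motif (TGANTCA, 6.75%) matched none of the 5 windows searched, and none of these 5 motifs matched the windows searched for *Fcgr2b* and *Fcer1g*. A match is a description of these letters and not of a bound site.

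The genes differed widely in level before injury. Per kilobase of RefSeq exon, the NI level was 2037 ± 329 CPM for *Fcer1g*, 1178 ± 148 for *Fcgr3*, 168 ± 26.0 for *Fcgr1*, 57.3 ± 12.5 for *Fcgr2b* and 17.5 ± 5.33 for *Fcgr4* (SD, n = 3 each). This order held within 20 of 20 samples. *Fcgr3* thus made up 83.0% ± 1.07 of the RNA of the 4 receptors per length in NI, *Fcgr1* 11.8% ± 0.34, *Fcgr2b* 4.02% ± 0.54 and *Fcgr4* 1.22% ± 0.24 (SD, n = 3 each). The shares assume even coverage along each transcript.

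**Figure D1:**
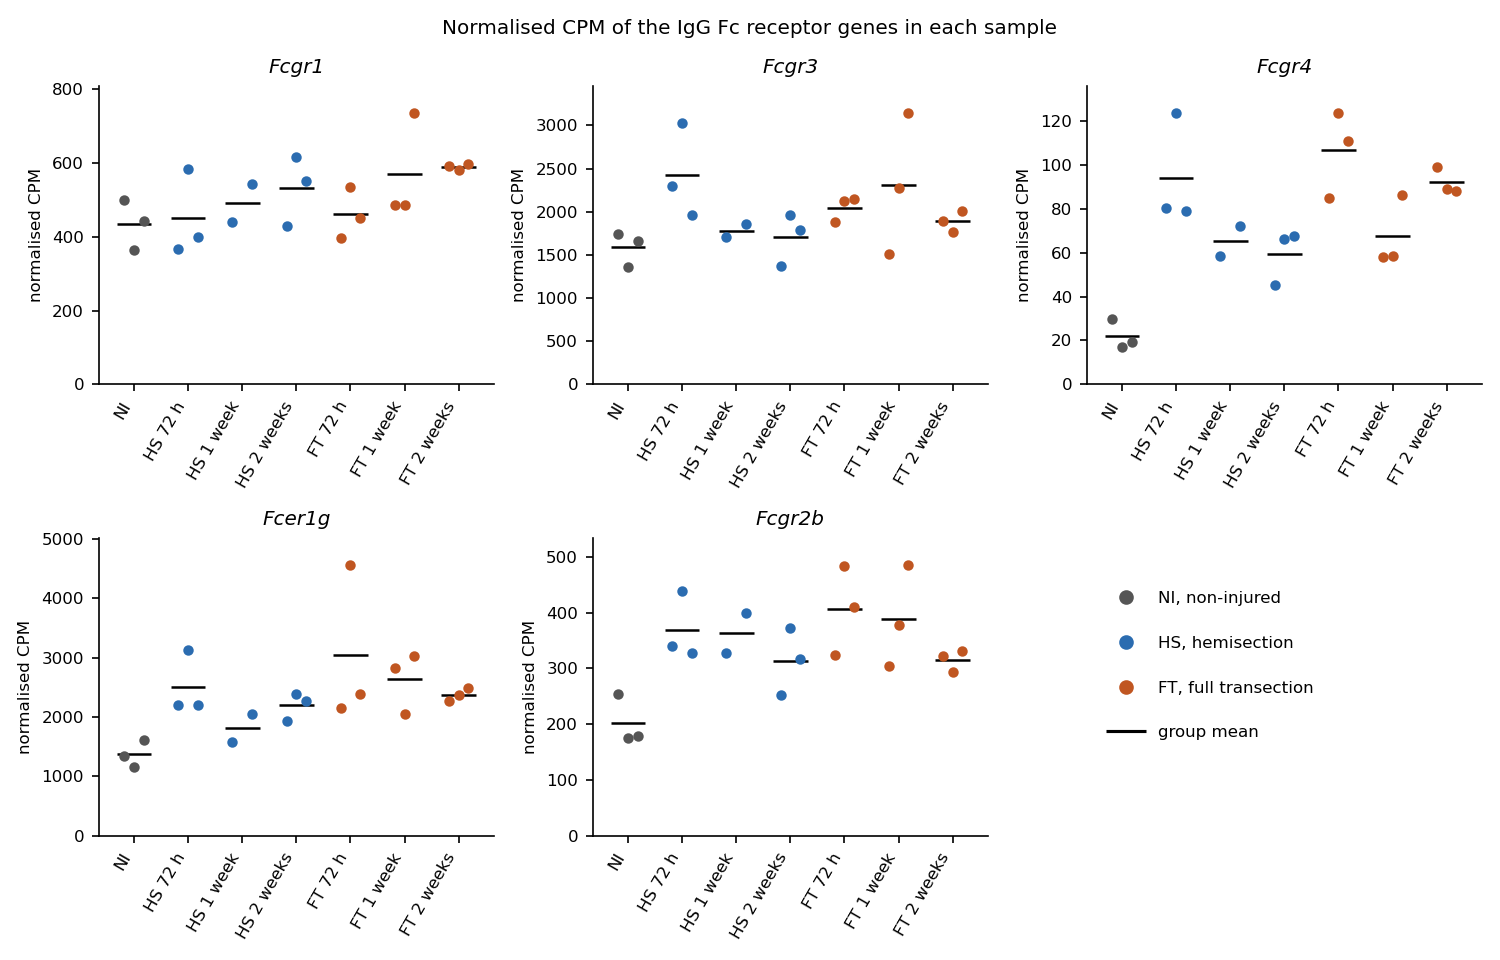
Normalised CPM of the 5 genes in each of the 20 samples, with the y axis from 0 and horizontal lines at the group means. *Fcgr4* lies between 16.99 and 29.6 CPM in NI and between 45.2 and 124 CPM in all injured samples. The ranges of *Fcgr1*, *Fcgr3*, *Fcer1g* and *Fcgr2b* overlap between NI and injured samples.

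The question asked of each injured group was how its microglia differ from those of the non-injured cord. *Fcgr4*, which in the mouse binds IgG subclasses with intermediate affinity and drives phagocytosis, had the largest change of the 5 genes. It had 29.6, 16.99 and 19.3 CPM in the 3 NI samples. At 72 h it had 80.2, 123 and 78.9 CPM after HS and 85.0, 124 and 111 CPM after FT. At 1 week it had 58.3 and 72.2 CPM after HS, and 58.0, 58.5 and 86.4 CPM after FT. At 2 weeks the values were 45.2, 66.1 and 67.4 CPM after HS and 99.2, 89.1 and 87.9 CPM after FT. Every injured sample lay above every NI sample, which 4.94% of all genes also showed. These levels rest on 132 to 2429 reads per sample.

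The log2 fold change of *Fcgr4* from NI after HS was 2.09 at 72 h (standard error 0.23, adjusted p = 1.18e-06), 1.58 at 1 week (standard error 0.26, adjusted p = 0.000819) and 1.44 at the last time (standard error 0.23, adjusted p = 0.000422; limma, adjusted over all genes by the method of Benjamini and Hochberg). After FT it was 2.28 at 72 h (adjusted p = 3.57e-07), 1.62 at 1 week (adjusted p = 0.000101) and 2.08 at 2 weeks (adjusted p = 2.49e-06; standard error 0.23 each, limma). In fold terms the rise was 4.24 and 4.85-fold at 72 h and 2.71 and 4.23-fold at 2 weeks, after HS and FT respectively. *Fcgr4* was differentially expressed (DE, at an adjusted p under 0.05 and at least 2-fold) in all 6 comparisons, which share the same NI samples. It stayed DE under all 11 other fits and scalings and without any of the 20 samples. In RNA of a sorted population, more cells that express a gene and more RNA per cell cannot be told apart.

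Markers of monocytes moved in the same direction as *Fcgr4*. The 10 genes of this list, none of them at 0 in any group, summed to 43.6 to 58.7 CPM in NI, 97.6 to 184 CPM at 72 h after HS and 145 to 335 CPM at 72 h after FT. At 1 week the sums were 121 to 146 CPM after HS and 83.0 to 123 CPM after FT, and at 2 weeks they were 72.5 to 105 CPM and 91.1 to 102 CPM. In the 6 comparisons 3, 2, 1, 7, 2 and 1 of the 10 genes were higher at an adjusted p under 0.05 (HS then FT, each at 72 h, 1 week and 2 weeks). The median log2 fold change of the list was 0.67, 1.24 and 0.69 after HS and 1.67, 0.49 and 0.34 after FT. Within the 6 injured groups, the sample with the largest monocyte sum had the highest *Fcgr4* of its group in 2 and the lowest in 3. It had the highest in HS 72 h replicate 2 (184 CPM, with 123 CPM of *Fcgr4*) and FT 1 week replicate 3 (123 CPM, with 86.4 CPM of *Fcgr4*). It had the lowest in FT 72 h replicate 1 (335 CPM, with 85.0 CPM of *Fcgr4*), HS 1 week replicate 1 and FT 2 weeks replicate 3. Some of these ranks rest on near ties. HS 72 h replicate 3 had a sum of 182 CPM and the lowest *Fcgr4* of its group (78.9 CPM). In FT 2 weeks the 2 lowest values of *Fcgr4* were 87.9 and 89.1 CPM. With 2 or 3 samples per group, the tally cannot show whether monocyte markers and *Fcgr4* go together. The part of these cells in the result was not tested.

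*Fcer1g* rose less than *Fcgr4*, from a much higher level. In NI it had 1349, 1164 and 1606 CPM, and in the injured samples it had from 1576 to 4569 CPM. At 72 h the values were 2207, 3126 and 2208 CPM after HS and 2153, 4569 and 2395 CPM after FT. At 1 week they were 1576 and 2052 CPM after HS and 2834, 2046 and 3032 CPM after FT. At 2 weeks they were 1931, 2395 and 2272 CPM after HS and 2265, 2375 and 2491 CPM after FT. Of the 17 injured samples, 16 lay above the highest NI sample, which 8.1% of all genes also reached.

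The log2 fold change of *Fcer1g* was 0.86 at 72 h after HS (standard error 0.27, adjusted p = 0.0196), 1.07 at 72 h after FT (adjusted p = 0.00521) and 0.93 at 1 week after FT (adjusted p = 0.0349, limma). The rise at 72 h after FT was the only DE call, at 2.11-fold. FT 72 h replicate 2, the sample with the fewest reads (3872918), had the highest *Fcer1g* of all samples, and without it the log2 fold change was 0.74; without NI replicate 2 it was 0.96, also under 2-fold. At 1 week after HS (0.40, adjusted p = 0.666), 2 weeks after HS (0.69, adjusted p = 0.176) and 2 weeks after FT (0.80, adjusted p = 0.0702) the gene did not pass. The call at 72 h after HS was lost without NI replicate 2 or without HS 72 h replicate 2 (log2 fold changes from 0.70), and the call at 1 week after FT was lost when any NI sample or FT 1 week replicate 3 was left out, and with only the groups compared in the fit. All 3 calls of *Fcer1g* were also lost after quantile normalization and with every column scaled to the same total. At 2 weeks after FT the gene passed without FT 72 h replicate 2 or FT 1 week replicate 1, by DESeq2, by the likelihood ratio test of edgeR and with only the groups compared in the fit.

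*Fcgr2b*, the inhibitory receptor, rose by about as much as *Fcer1g*. It had 254, 176 and 179 CPM in NI. At 72 h it had 340, 438 and 328 CPM after HS and 324, 483 and 409 CPM after FT. At 1 week the values were 327 and 400 CPM after HS and 304, 378 and 486 CPM after FT, and at 2 weeks they were 252, 372 and 318 CPM after HS and 323, 293 and 330 CPM after FT. HS 2 weeks replicate 1 was the only injured sample that did not exceed the highest NI sample, and 8.1% of all genes had at least 16 of 17 injured samples above NI. The log2 fold change was 0.87 at 72 h after HS (standard error 0.21, adjusted p = 0.00426), 1.00 at 72 h after FT (adjusted p = 0.00152) and 0.93 at 1 week after FT (adjusted p = 0.00774, limma). At the first of these times after FT the change of 1.999-fold fell just short of the 2-fold limit, and the gene was not DE in any comparison; at that time it was DE without NI replicate 1, without FT 72 h replicate 1, with 0.1 CPM added, with median of ratios scaling and by DESeq2. It did not pass at 1 week after HS (0.85, adjusted p = 0.0592), nor at 2 weeks after HS (0.63, adjusted p = 0.103) or FT (0.65, adjusted p = 0.0637). The call at 72 h after HS was lost after quantile normalization (log2 fold change 0.36, limma adjusted p = 0.133) and with the same column total (0.36). The call at 1 week after FT was lost without NI replicate 2, without FT 1 week replicate 3 and when the other groups were left out of the fit. At 1 week after HS and at 2 weeks after FT, *Fcgr2b* passed without NI replicate 1, FT 1 week replicate 1 or FT 1 week replicate 3, and with only the groups compared in the fit; at 1 week after HS it also passed by DESeq2 and by the likelihood ratio test of edgeR.

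*Fcgr3*, the low-affinity activating receptor and the most abundant of the receptors, did not pass the test in any comparison with NI. It had 1742, 1362 and 1657 CPM in NI and from 1370 to 3142 CPM in the injured samples, of which 14 of 17 lay above the highest NI sample; 14.1% of all genes had at least that many. Its largest log2 fold change was 0.60 at 72 h after HS (95% interval 0.09 to 1.11, adjusted p = 0.0761, limma), where the samples had 2298, 3033 and 1958 CPM. It passed there by DESeq2 and by the likelihood ratio test of edgeR, and without FT 1 week replicate 1 or 3. At 2 weeks after HS it was 0.10 (95% interval -0.42 to 0.61). Its samples spread widely at 1 week after FT, with 1514, 2271 and 3142 CPM, and it passed there without the lowest of them (log2 fold change 0.76, limma adjusted p = 0.0256).

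*Fcgr1*, the high-affinity receptor that can hold monomeric IgG, did not pass in any comparison with NI either on the deposited scale. It had 499, 365 and 441 CPM in NI and from 368 to 735 CPM in the injured samples, 9 of 17 of which lay above the highest NI sample (30.8% of all genes had at least 9). Its log2 fold change was 0.03 at 72 h after HS (95% interval -0.42 to 0.48) and 0.08 at 72 h after FT (95% interval -0.36 to 0.53), so that the interval does not hold a 2-fold change in either direction. It was 0.45 at 2 weeks after FT (95% interval 0.00 to 0.90, adjusted p = 0.26, limma), where the samples lay close together at 590, 580 and 596 CPM. On the deposited scale all 5 genes had positive log2 fold changes in all 6 comparisons, but those of *Fcgr1* turned negative after quantile normalization and with the same column total in 4 comparisons (HS at all times and FT at 72 h), and those of *Fcgr3* turned negative in all 6 after quantile normalization. *Fcgr1* then passed as lower at 72 h after HS under both scalings (limma adjusted p = 0.0302 after quantile normalization). With the same column total *Fcgr3* was negative in 4 comparisons. That last scaling takes the median over all genes to -0.52, -0.17 and -0.29 after HS and to -0.48, -0.32 and -0.36 after FT. The column totals ranged from 777426 to 830481 CPM for NI, while those of injured samples ranged from 878070 to 1202186 CPM.

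**Figure D2:**
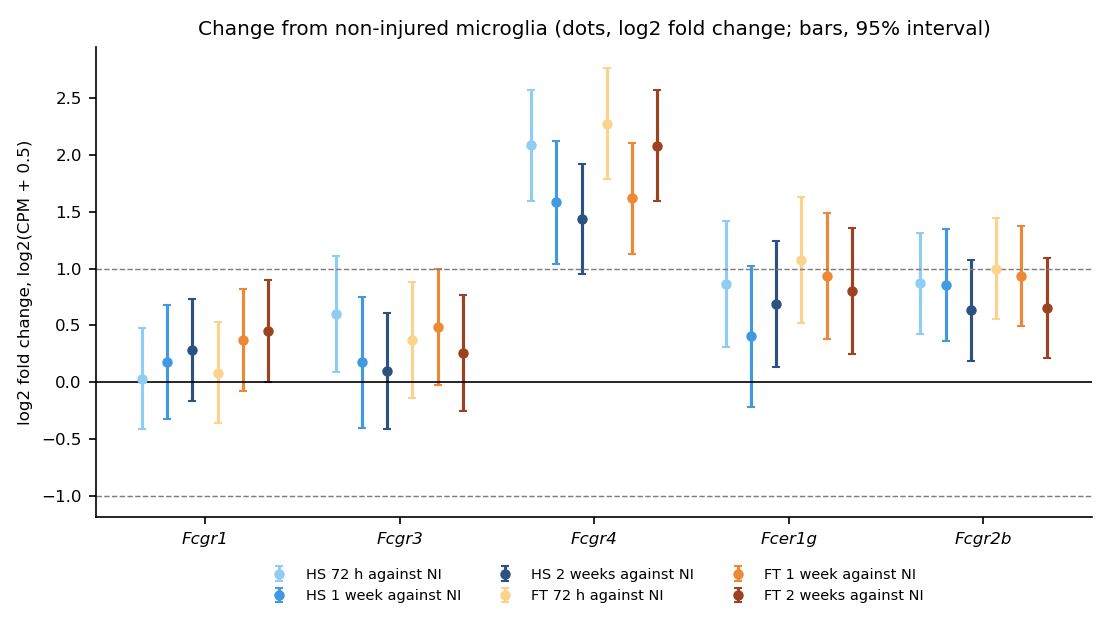
Log2 fold change of each gene from NI in the 6 injured groups (dots, on the scale of log2 of CPM plus 0.5) with 95% intervals from limma (bars); dashed lines mark 2-fold. The 6 intervals of *Fcgr4* lie at or above 0.95, and the intervals of *Fcer1g* and *Fcgr2b* reach lower bounds from -0.22 to 0.56.

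Counted over the 5 genes, 1 was DE in every comparison except that at 72 h after FT, where 2 were. Of all 16810 genes, the share that was DE and higher was, in the order of the times, 9.08%, 1.7% and 2.43% after HS and 8.14%, 2.86% and 3.53% after FT. On the adjusted p alone, 3, 1 and 1 of the 5 genes were higher after HS and 3, 3 and 1 after FT, against 16.4%, 2.07% and 3.84% of all genes after HS and 14.8%, 5.11% and 6.21% after FT. The median log2 fold change of the 5 genes was 0.86, 0.40 and 0.63 after HS and 1.00, 0.93 and 0.65 after FT, where that of all genes lay between -0.11 and 0.02. *Fcgr4*, *Fcgr2b* and *Fcer1g* are the genes counted, and *Fcgr4* is the gene counted in all 6 comparisons.

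The balance of activating to inhibitory receptor was read within each sample as the log2 ratio to *Fcgr2b*, which does not depend on how a column is scaled, and it is given with no test. For *Fcgr4* the ratio was -3.10, -3.37 and -3.22 in NI and lay between -2.69 and -1.70 in the injured samples. All 17 injured samples were higher than all NI samples, as were the ratios of 0.59% of the 15596 genes with a read in every sample. The ratios of *Fcgr1* (0.97, 1.05 and 1.30 in NI) and *Fcgr3* (2.78, 2.95 and 3.21 in NI) moved the other way. Both were below all NI samples in 16 of the 17 injured samples, but so were those of 34.1% of genes, since *Fcgr2b* itself rose. *Fcgr1* was lowest relative to *Fcgr2b* at 72 h (0.11 to 0.41 after HS and 0.14 to 0.29 after FT) and higher at 2 weeks (0.73 to 0.79 and 0.85 to 0.98). The ratio of *Fcer1g* to *Fcgr2b* overlapped between groups, with 2.41 to 3.16 in NI and 2.27 to 3.24 after injury.

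**Figure D3:**
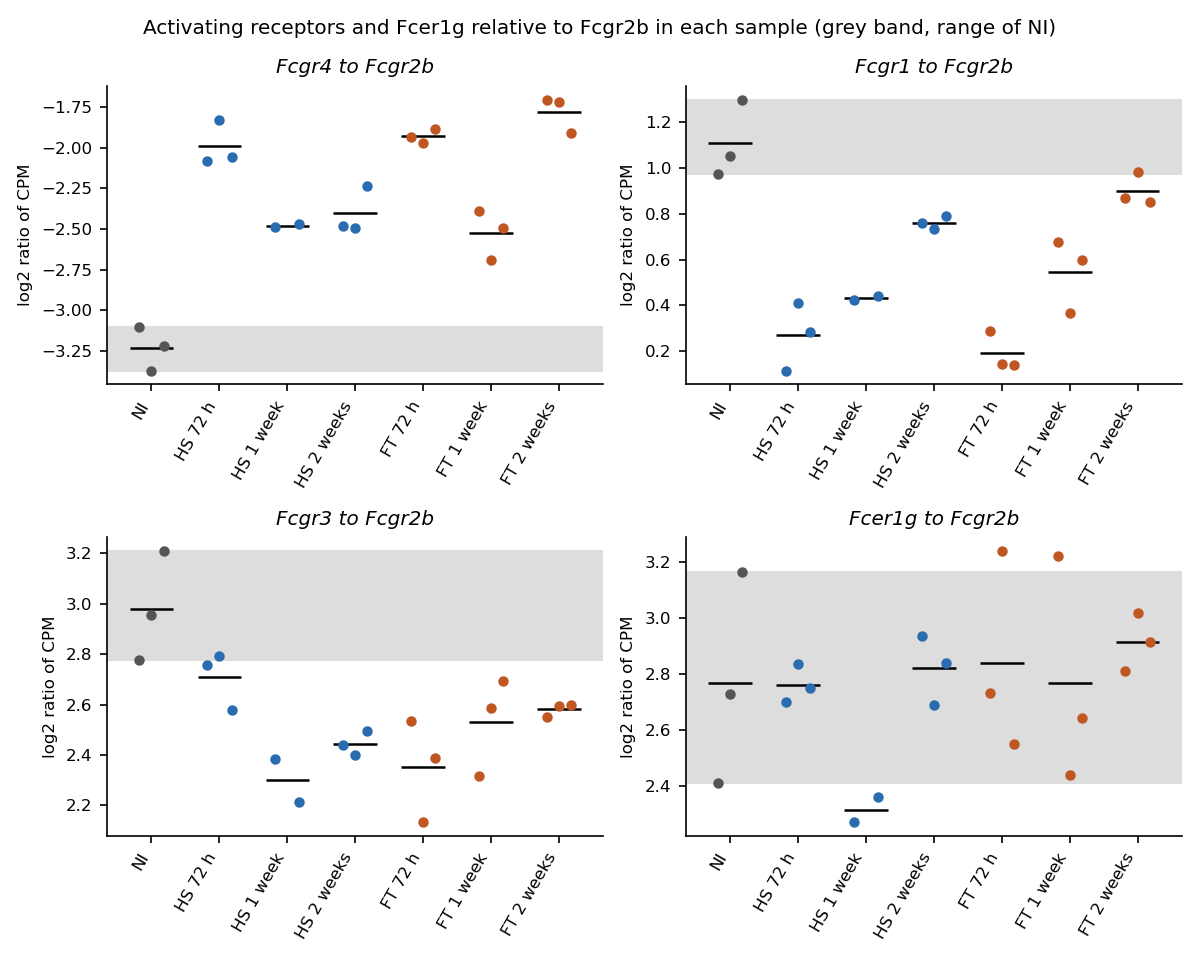
Log2 ratio of CPM to *Fcgr2b* in each sample for the activating receptors and *Fcer1g*, with horizontal lines at the group means and a grey band over the range of the 3 NI samples. *Fcgr4* is above the band in all 17 injured samples, *Fcgr1* and *Fcgr3* are below it in 16, and *Fcer1g* straddles it.

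As a share of the RNA of the 4 receptors per length, *Fcgr4* went from 1.22% in NI to 3.46% ± 0.25 at 72 h after HS and 4.45% ± 0.46 at 72 h after FT, and was 2.94% ± 0.22 and 4.10% ± 0.34 at 2 weeks (SD, n = 3 each). *Fcgr2b* per length exceeded *Fcgr4* by 3.04 to 3.67-fold in NI and by 1.15 to 2.29-fold after injury. *Fcgr3* kept from 77.7% to 85.0% of the total in every injured sample. *Fcgr1* had its lowest share at 72 h, with 8.05% ± 0.87 after HS and 9.35% ± 0.76 after FT (SD, n = 3 each), against 11.8% in NI.

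The severity of the lesion was examined by comparing FT with HS at the same time. None of the 5 genes passed at 72 h, 1 week or 2 weeks (limma, adjusted p of at least 0.999). By limma none of the 16810 genes passed either (0%, 0% and 0%). Of all genes, the likelihood ratio test of edgeR called 8 at 1 week and DESeq2 called 7, and each called 1 at 2 weeks. By edgeR and DESeq2, 0 of the 5 genes were called as well. At an unadjusted p under 0.05 in limma the count was 0, 0 and 1 of 5. The gene was *Fcgr4* at 2 weeks, where the FT samples (87.9 to 99.2 CPM) lay above the HS samples (45.2 to 67.4 CPM). Samples of these groups did not overlap for 8.15% of all genes. The difference of *Fcgr4* was 0.64 on the log2 scale (95% interval 0.16 to 1.13, unadjusted p = 0.0118, limma adjusted p = 1.00), and it was 0.19 (95% interval -0.30 to 0.68) at 72 h and 0.03 (95% interval -0.51 to 0.58) at 1 week. The next largest difference was that of *Fcer1g* at 1 week, with 0.53 (95% interval -0.09 to 1.15). The upper bounds of these intervals reach 1.15 on the log2 scale.

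**Figure D4:**
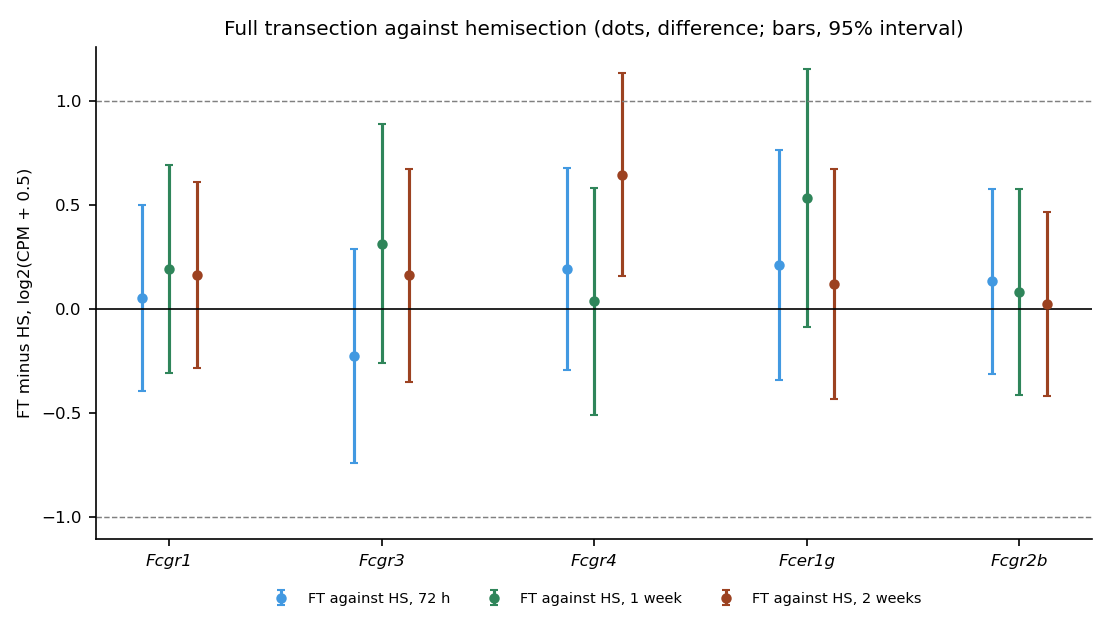
FT minus HS at each time for the 5 genes (dots, difference in log2 of CPM plus 0.5) with 95% intervals from limma (bars); dashed lines mark 2-fold. The interval of *Fcgr4* at 2 weeks (0.16 to 1.13) is the only one that does not hold 0.

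The times were also compared with each other within each injury. None of the 5 genes passed. Of all genes, 9.54% passed between 1 week and 72 h, 10.2% between 2 weeks and 72 h and 0.0119% between 2 weeks and 1 week after HS. After FT the shares were 5.28%, 5.78% and 0.0714%. At such shares, 0 of 5 does not set these genes apart from the rest. *Fcgr4* had the smallest p-values. After HS it fell by 0.65 on the log2 scale from 72 h to 2 weeks (95% interval -1.13 to -0.16, unadjusted p = 0.0115, limma adjusted p = 0.082). The samples of these groups did not overlap, which was the case for 29.9% of all genes. After FT its difference from 72 h to 1 week was -0.66 (95% interval -1.15 to -0.17, unadjusted p = 0.0103, limma adjusted p = 0.107), and its level at 2 weeks was 0.47 above that at 1 week (95% interval -0.02 to 0.95). These were the only unadjusted p-values under 0.05 of the 5 genes in the 6 comparisons by limma. By DESeq2 *Fcgr4* passed between 2 weeks and 72 h after HS (adjusted p = 0.0472), edgeR passed none, and without FT 1 week replicate 3 the difference between 1 week and 72 h after FT passed in limma (adjusted p = 0.0467).

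The remaining genes of the pathway were taken as lists from general knowledge and counted on the deposited scale. Beside each count, the share of all genes that were lower was 10.9%, 0.607% and 1.15% after HS and 9.33%, 1.92% and 1.96% after FT, and the shares that were higher are given above.

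The ITAM adaptor partners are *Tyrobp*, the adaptor that resembles *Fcer1g*, with *Hcst* and receptors that pair with such adaptors or oppose them. Of 11 genes, 7, 2 and 4 were higher after HS and 7, 5 and 5 after FT, and 0 were lower. Their median log2 fold change was 1.34, 0.76 and 0.71 after HS and 1.28, 1.08 and 0.98 after FT. *Lilrb4*, an inhibitory receptor, and its near copy *Gp49a* had the largest rises, with log2 fold changes of 2.85 to 3.25 and of 1.61 to 2.10, and both passed in all 6 comparisons; reads may be split between them. *Tyrobp* passed in 5 of 6, with 0.58 at 1 week after HS, where it did not pass, and up to 1.16. Its level in NI was 1581 to 2093 CPM.

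Among the kinases that act on the ITAM, 2, 1 and 1 of 8 were higher after HS and 3, 1 and 2 after FT, and *Src* alone was lower, at 72 h after both injuries (-1.44 and -1.40). The median lay between -0.09 and 0.10. *Fgr*, a myeloid Src family kinase, was higher in all 6 comparisons, with log2 fold changes from 1.37 to 2.51, and *Btk* in 2, with 0.94 and 0.93 at 72 h. *Syk*, the kinase that docks on the phosphorylated ITAM, passed in none, with log2 fold changes from -0.42 to -0.21.

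Of the 14 genes of the phagocytic cup and its actin, 6, 0 and 1 were higher after HS and 5, 2 and 2 after FT, and 0 were lower. The median was 0.34 and 0.38 at 72 h. *Arpc3*, a subunit of the Arp2/3 complex, passed in 4 comparisons (0.79 to 1.83 over the 6), and *Rac2*, a GTPase of blood cells that organizes actin, passed in 5 (0.68 to 1.93).

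The adaptors and effectors downstream of Syk moved little, with 1 of 17 higher and 2 lower at 72 h after HS, 0 higher and 2 lower at 72 h after FT, and 0 at the later times. The gene that was higher was *Lat2*, at 0.62, and those lower were *Pik3r1* (-0.95 and -0.65) and *Prkcd* (-0.81 and -0.78). Among 10 genes of inhibitory signaling, *Dok2* was higher at 72 h after HS (1.25) and no other passed in any comparison. *Inpp5d*, the phosphatase recruited by *Fcgr2b*, ranged from -0.19 to 0.16 and *Ptpn6* from 0.28 to 0.45, without passing.

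Of the 9 other antibody receptors with values, *Fcrls*, an Fc receptor-like gene typical of mouse microglia, was higher in 3 comparisons (1.51 at 72 h after HS, 1.61 at 72 h and 1.15 at 1 week after FT), and *Trim21*, an antibody receptor of the cytosol, was lower at 72 h after HS (-0.75). *Fcgrt*, the neonatal Fc receptor that recycles IgG, passed in none, with -0.26 to 0.33. None of the 14 immunoglobulin genes of the list was found by symbol in the expression table.

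**Figure D5:**
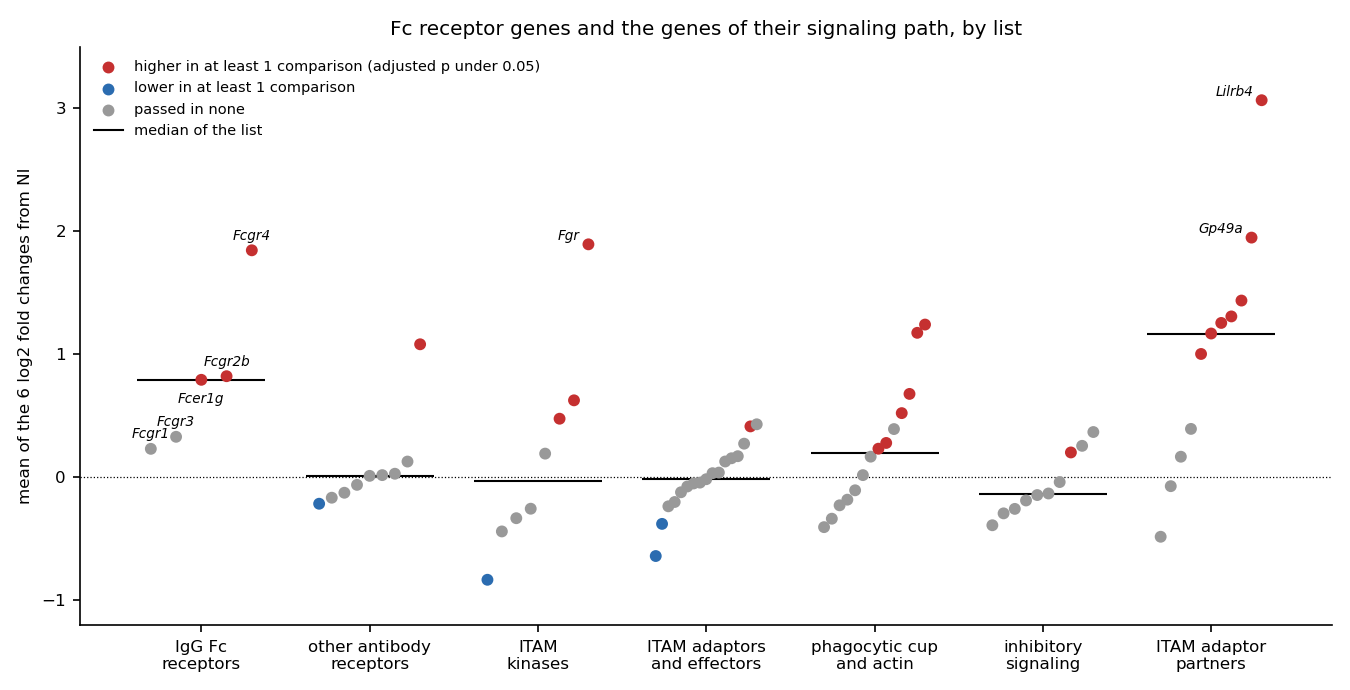
Mean of the 6 log2 fold changes from NI for the 5 Fc receptor genes and for each gene of 6 signaling lists, ordered within a list, with a line at the list's median. Red and blue dots passed an adjusted p of 0.05 upward or downward in at least 1 comparison; *Fcgr4*, *Fgr*, *Lilrb4* and *Gp49a* have means from 1.85 to 3.07.

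The genes whose pattern over the 7 groups was most like that of *Fcgr4* were *Iqgap1*, *Plin2* and *Ms4a4c*, with root mean square differences of 0.13, 0.16 and 0.16 between the centred log2 group means, out of 14046 genes with a mean of at least 1 CPM. *Ms4a4c* is among the monocyte markers above, and with a mean of 33.6 CPM over the 20 samples it is a sizeable part of their sums. For *Fcer1g* they were *Mpp4* (0.06), *Akap3* (0.08) and *1810034E14Rik* (0.08), which had means of 8.34, 3.54 and 2.48 CPM.

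Genes that lie between the receptors on chromosome 1 did not all move with them. *Sdhc*, *Pcp4l1* and *Nr1i3* are named here after their values were seen. *Sdhc*, a subunit of succinate dehydrogenase, was DE in 2 comparisons and its mean log2 fold change was 0.74, whereas that of *Pcp4l1* was -1.28 and that of *Nr1i3* was -0.07. The level of *Nr1i3* was under 1 CPM on average.

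Markers of other cells that carry Fc receptors were checked in the same way. Border macrophage markers (7 genes with values) summed to 663 to 705 CPM in NI and 685 to 1261 CPM at 72 h after FT, where 2 were higher and 2 lower and the median log2 fold change was -0.50. At 72 h after HS 1 was higher and 2 were lower, at 1 week 4 were lower after HS and 5 after FT, and 6 of the 7 were lower than NI at 2 weeks after each injury, with sums of 329 to 373 CPM after HS and 354 to 478 CPM after FT. Neutrophil markers (11 genes) summed to 773 to 837 CPM in NI and 467 to 660 CPM at 72 h after HS, and 1 of 11 was lower at 72 h after each injury. The 9 markers of B and plasma cells, which carry *Fcgr2b*, summed to 49.2 to 61.5 CPM in NI and to between 80.4 and 162 CPM in the injured samples, all of which lay above all NI samples. Among single genes, 4.94% of all genes had every injured sample above every NI sample. Of these markers, 2 were higher at 72 h after HS and 1 in each other comparison. The median log2 fold change of this list was -0.31, 0.11 and 0.16 after HS and -0.18, 0.10 and 0.03 after FT, so that the sums do not stand for the list as a whole. The 7 NK cell markers summed to at most 14.7 CPM, with 1 higher at 72 h after FT. The 6 markers of mast cells and basophils summed to at most 18.8 CPM, with 1 higher at 1 week and 2 at 2 weeks after HS, 1 higher at 1 week after FT and 1 lower at 72 h after HS. The part of these cells in the results was not tested.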

How the data were processed

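Per the labels and the study's methods, adapters were removed, reads were mapped with TopHat2 2.0.9 to mm10 and counted with HTSeq 0.5.4p3, genes with low counts were dropped, and counts were scaled by library size with edgeR 3.3.6. The signal the authors deposited is CPM, with library sizes multiplied by edgeR factors. Whole reads were recovered, 100% of 336200 values being whole within 0.001 of 1 read. Strand and batch are not stated. Libraries may hold RNA of several mice, so that p-values measure the spread between these samples.

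After adding 0.5 CPM, log2 values of all 20 samples were fitted with limma 3.58.1 (1 mean per group, intensity trend), with Benjamini-Hochberg adjustment over 16810 genes in each of 15 comparisons. The fit was tested on simulated counts. DE means an adjusted p under 0.05 and at least 2-fold, the study's criterion. Alternatives were 0.1 or 1 CPM added, a filter on low values, only the 2 groups compared, other scalings, edgeR 4.0.16 (quasi-likelihood and likelihood ratio) and DESeq2 1.42.0 on the recovered reads, a replicate block, no fold limit, and leaving out each sample. Lengths, positions and shared stretches are from GENCODE vM21, using transcripts with RefSeq entries for lengths.

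The 5 genes, the lists and the tests were chosen with earlier results of these data known. In each list of 7, the genes named are the 2 largest rises and falls by the mean of the 6 log2 fold changes among those that passed at least once, with *Syk*, *Inpp5d*, *Ptpn6*, *Tyrobp* and *Fcgrt*. Patterns were compared by the root mean square difference of centred group means. The marker lists of T cells (7 genes) and dendritic cells (8 genes) had 0 genes past an adjusted p of 0.05 in any comparison by limma. Some items are not reported here.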

Additional observations from a re-analysis of the deposited data

How the results depend on the processing

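Of 930 values of single genes under other settings, 892 kept their direction and their side of the DE limits. Of 480 counts of DE genes among the 5 over all 15 comparisons, 469 stayed within 1.5 times. In the comparisons without NI none of the 5 genes was DE under any setting, and those counts are among the ones that stayed. At 72 h after FT the count of 2 became 1 after quantile normalization and with the same column total; without a fold limit the count of 1 became 3 at 72 h after HS and 3 at 1 week after FT. With 1 sample left out, the counts ranged from 1 to 2 at 72 h and 1 week after HS, from 1 to 3 at 72 h after FT and from 1 to 2 at 1 week after FT. The count at 72 h after FT was 1 without NI replicate 2 or FT 72 h replicate 2. The counts at 72 h and 1 week after HS and at 1 week after FT were 2 without NI replicate 1, and the last was also 2 without FT 1 week replicate 1 or 2. The cause was not tested.

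*Fcgr1* turned negative after quantile normalization at 72 h (-0.54), 1 week (-0.065) and 2 weeks (-0.058) after HS and at 72 h after FT (-0.40), and with the same column total (-0.48, -0.032, -0.040 and -0.39). Under both its fall at 72 h after HS passed the adjusted p of 0.05, short of 2-fold. *Fcgr3* turned negative after quantile normalization at -0.085, -0.20 and -0.42 after HS and -0.23, -0.17 and -0.35 after FT, and with the same column total at 1 and 2 weeks after HS (-0.038 and -0.23) and at 72 h and 2 weeks after FT (-0.10 and -0.14). With 1 sample left out, *Fcgr1* ranged from -0.17 to 0.16 at 72 h after HS and from -0.038 to 0.19 at 72 h after FT, and *Fcgr3* from -0.012 to 0.25 at 2 weeks after HS. Each turned negative without NI replicate 2, and without replicate 2 of the injured group.

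The replicate block gave 1, 1, 1, 2, 1 and 1 DE genes, as without it. Between same-numbered samples of different groups, deviations from the group means correlated at -0.43 to 0.44, with 20 of 57 pairs over 0.1. Between samples of different number they correlated at -0.44 to 0.43, with 43 of 114 over 0.1. No pairing by number was seen in these values, but 2 or 3 samples per group cannot settle whether the numbers pair the samples. The counts of all genes that passed are limited by 2 or 3 samples per group, and *Fcgr4* rests on as few as 132 reads.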
